A study of Mus musculus with 12 samples.

Results

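Of the 18193 genes measured on 12 mouse mammary gland arrays, 10 are described here: Oxtr, the receptor for the hormone oxytocin, and 9 genes of the contractile apparatus that myoepithelial cells share with smooth muscle (Acta2, Actg2, Cnn1, Myh11, Mylk, Tagln, Myl9, Lmod1 and Smtn). They were taken by gene symbol and are read by 16 of the 45101 probe sets on the array, groups of short probes that are read as 1 value. The members were chosen with earlier results of these data known. Their counts beside the shares over all genes are therefore descriptions and not independent evidence. The glands came from virgin C57BL/6 mice of 2 genotypes, Ccnd1+/+ (wildtype) and Ccnd1-/- (knockout), the latter without the gene of cyclin D1, which activates kinases that start the cell cycle. Every mouse had been ovariectomized, so all groups lacked ovarian hormones, and was then given placebo or estradiol releasing pellets (0.72 mg, 60-day release) for 7 days, with 3 separate mice per group. The labels give neither age, nor which gland was taken, nor how the Ccnd1 allele was made, and they name no Cre or promoter.

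Values are log2 intensities, 1 probe set standing for each gene, and differences between groups are log2 differences with their standard error (SE) from 1 limma fit over all genes. A gene was called when its p-value, adjusted over all 18193 genes, was under 0.05. Ccnd1 itself was lower in all 6 knockout arrays (7.24 to 7.68) than in the 6 wildtype arrays (8.50 to 10.82), and knockout minus wildtype was -2.62 on estradiol (adjusted p = 0.0094) and -1.25 on placebo (adjusted p = 1). Where its probes lie relative to the deleted part is not known here. Arrays correlated with each other at 0.937 to 0.993 across genes. Array 3 of wildtype placebo and array 2 of knockout placebo stood apart from their groups in Oxtr and in their lymphocyte markers, and the results that rest on them are given with and without them. They were the highest of their group in 7 and 6 of the 9 contractile genes. Array 1 of knockout estradiol, highest of its group in 8 of the 9, stood apart in its lymphocyte markers too.

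Myoepithelial cells form the outer layer of mammary ducts and alveoli and squeeze milk toward the nipple. Oxytocin binds its receptor, which acts through a Gq protein and phospholipase C to release calcium. Calcium with calmodulin activates myosin light chain kinase, the product of Mylk. The kinase phosphorylates the regulatory light chain Myl9, and myosin built on the Myh11 heavy chain then pulls on filaments of the actins Acta2 and Actg2. The same actins and their partners are made by vascular smooth muscle, so a whole gland reads these cells, and any others that make them, together. In such bulk tissue, fewer cells of a type and less RNA per cell cannot be told apart.

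Oxtr rose under estradiol in wildtype glands and was high in all knockout arrays on estradiol too. In wildtype placebo the 3 arrays read 6.41, 6.27 and 8.68, and in wildtype estradiol 11.48, 11.74 and 11.53. Knockout placebo read 7.62, 9.22 and 7.04, and knockout estradiol 11.61, 11.85 and 11.96. All 6 estradiol arrays lay above all 6 placebo arrays, and the placebo arrays spread far more than the estradiol arrays, with array 3 of wildtype and array 2 of knockout the highest on placebo. The wildtype rise was 4.46 ± 0.65 (SE, adjusted p = 0.00837), or 22.1-fold, and it was called whichever array was left out (4.04 to 5.24). The knockout difference was 3.85 ± 0.65 (adjusted p = 0.0995), or 14.4-fold, which did not pass. Without wildtype placebo array 3 the same knockout difference passed (SE 0.44, adjusted p = 0.0130), since that array enters the shared estimate of the spread. It passed as well with both lymphocyte-poor placebo arrays left out (4.48 ± 0.19, adjusted p = 3.82e-05).

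A second Oxtr probe set, dimmer and steadier on placebo, gave the same order of groups. In wildtype it read 5.53, 6.32 and 6.47 on placebo and 8.33, 8.06 and 8.02 on estradiol. In knockout it read 6.44, 6.66 and 6.12 on placebo and 8.35, 8.32 and 8.38 on estradiol. Its estradiol difference was 2.03 ± 0.23 in wildtype (adjusted p = 0.0036 in a fit over all probe sets) and 1.95 ± 0.23 in knockout (adjusted p = 0.0165), and both passed. The sets thus differed in size of change and not in direction. Averaged over genotypes, Oxtr rose by 4.16 ± 0.46 (adjusted p = 0.0020) and was the 1 member called in that comparison, where 1.43% of all genes were called higher.

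Oxtr was not called between genotypes under either treatment. The SE is shared by the 4 groups, although their SDs were unlike. In wildtype and knockout the SDs were 1.36 and 1.13 on placebo and 0.14 and 0.18 on estradiol. The SE on estradiol thus reflects the placebo arrays more than the estradiol arrays. Knockout minus wildtype was 0.84 ± 0.65 on placebo (adjusted p = 1) and 0.22 ± 0.65 on estradiol (adjusted p = 0.919), and the arrays of both genotypes overlapped under each treatment. The interaction, the estradiol response of knockout less that of wildtype, was -0.62 with a 95% interval of -2.66 to 1.43 (adjusted p = 0.982). By the second probe set it was -0.08 ± 0.32, with an interval of -0.79 to 0.63.

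The Oxtr promoter is shown for the estrogen receptor's binding letters. The 300 bases run from 250 before to 50 after the gene's start in RefSeq, build GRCm38.p6, chr6:112489776-112490075 on the minus strand, with each copy of GGTCA, one arm of the estrogen response element, in capitals.
Oxtr: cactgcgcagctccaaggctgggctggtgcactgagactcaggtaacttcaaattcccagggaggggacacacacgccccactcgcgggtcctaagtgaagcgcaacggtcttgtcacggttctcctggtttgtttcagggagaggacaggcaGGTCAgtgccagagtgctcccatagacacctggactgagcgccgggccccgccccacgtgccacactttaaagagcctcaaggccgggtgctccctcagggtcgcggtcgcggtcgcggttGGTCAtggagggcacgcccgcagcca
The copies begin at positions -97 and 24 relative to the start. A search of both strands for GGTCA or its complement found 1 or more in 40.5% of 32851 promoters of this length, and in 3 of the 7 members with a promoter sequence (Oxtr, Mylk and Lmod1). The full element, GGTCA and TGACC with 3 bases of any kind between them, was in 0.07% of promoters and in 0 of the 7. A match of letters is a description of this window, not a binding site.

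**Figure D1:**
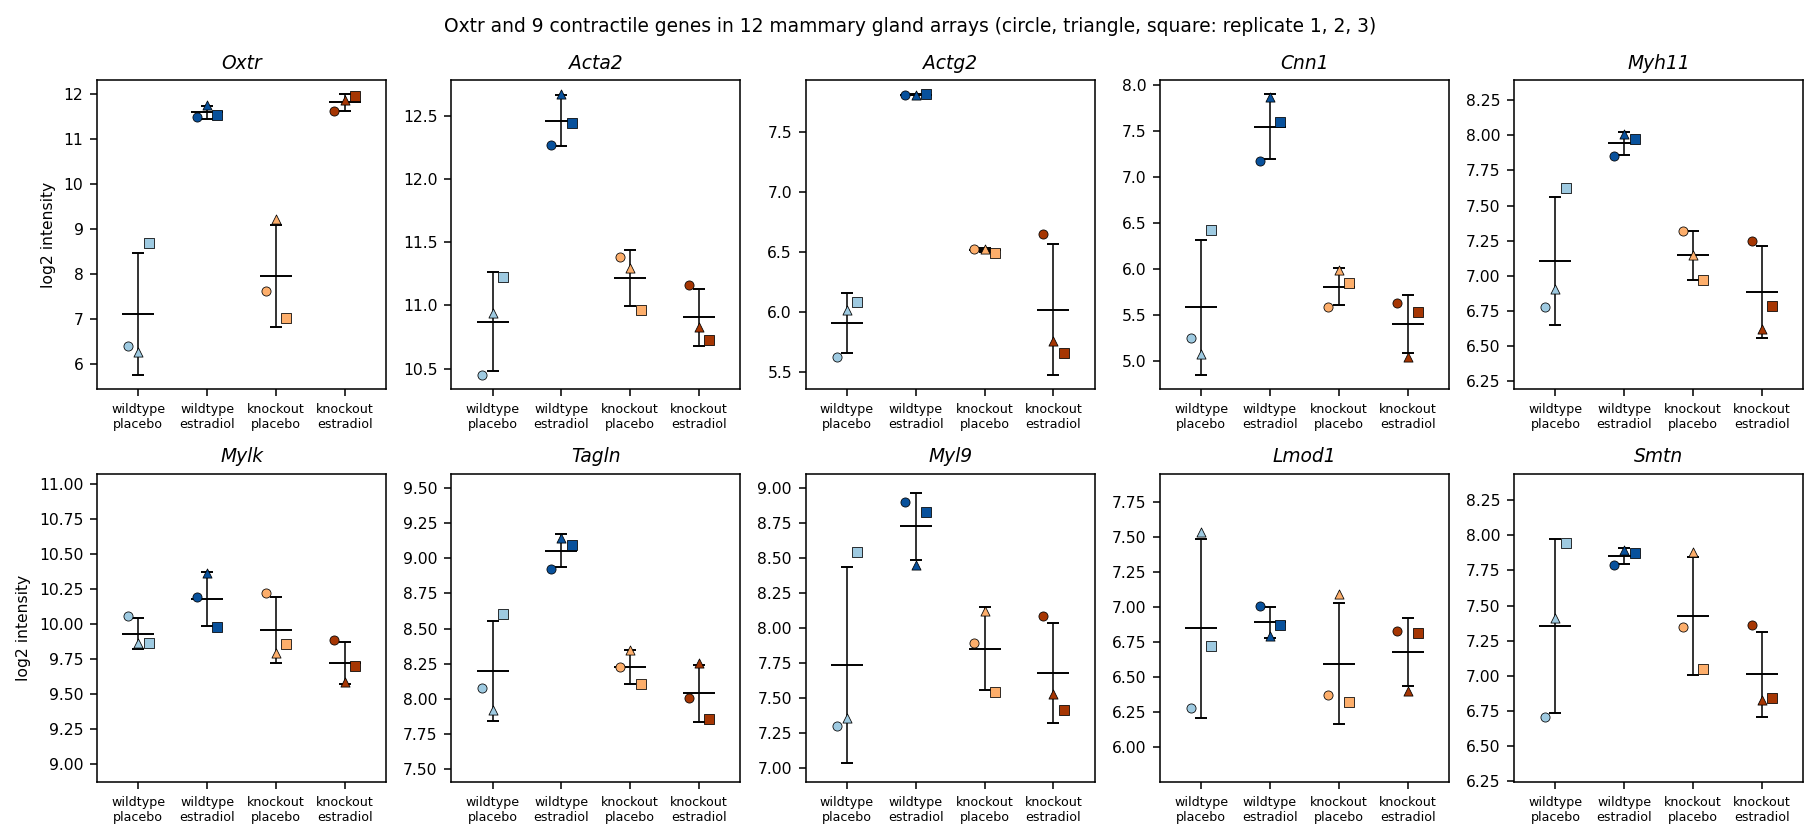
Log2 intensity (y axes, each with its own range) of Oxtr and the 9 contractile genes in the 4 groups of 3 mice; points are arrays, with the symbol giving the replicate number, and bars are mean ± SD. Oxtr is high in both estradiol groups, while the 9 contractile genes have their highest mean in wildtype estradiol. The arrays there do not overlap any other group in Acta2, Actg2, Cnn1, Myh11 and Tagln. Those of Myl9 overlap wildtype placebo through its array 3.

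The contractile genes had another pattern. Under estradiol in wildtype, 4 of the 9 were called higher, namely Actg2, Acta2, Cnn1 and Tagln, and all 9 differences were above 0, with a median of 0.86 against 0.01 over all genes. With Oxtr, 5 of the 10 members were called higher, where 1.83% of all genes were. The arrays of the treatments did not overlap in 6 members, with estradiol higher, as in 11.9% of all genes, and 7 had an unadjusted p under 0.05, as did 13.5% of all genes. The count of 5 became 3 when array 1 or 2 of wildtype placebo, or array 2 or 3 of wildtype estradiol, was left out, and 7 when it was array 3 of wildtype placebo. Over all genes the count of 342 became 107, 100, 242, 153 and 1146 in the same order.

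Among the thin filament genes, Acta2, which encodes smooth muscle alpha-actin and is the usual marker of myoepithelium, read 10.45, 10.94 and 11.23 in wildtype placebo and 12.27, 12.67 and 12.45 in wildtype estradiol. In knockout it read 11.39, 11.30 and 10.96 on placebo and 11.16, 10.83 and 10.73 on estradiol. The 3 wildtype estradiol arrays stood above the other 9, which overlapped each other. Its wildtype rise was 1.59 ± 0.21 (adjusted p = 0.00522), or 3.02-fold, and was called whichever array was left out. The knockout difference was -0.31 ± 0.21 (adjusted p = 0.749). The probe set of Acta2 carries the suffix s_at, by which Affymetrix marks probes that can match more than 1 gene, so a part from a related actin is possible. The gene's other probe sets lay under the lower quartile of their array in 12 and 11 of the 12 arrays and read between 3.05 and 4.66.

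Actg2, the gamma-actin of visceral smooth muscle, differed little between the mice of a group, except in knockout estradiol. In wildtype it read 5.62, 6.02 and 6.08 on placebo and 7.80, 7.81 and 7.81 on estradiol. In knockout it read 6.52, 6.53 and 6.49 on placebo and 6.65, 5.75 and 5.66 on estradiol. Again wildtype estradiol alone stood clear of every other array. The rise in wildtype was 1.90 ± 0.23 (adjusted p = 0.00443), or 3.74-fold, and it too was called whichever array was left out. The knockout difference of -0.49 ± 0.23 (adjusted p = 0.612) did not pass.

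Cnn1, or calponin, which binds actin and slows the myosin motor, read 5.24, 5.07 and 6.42 in wildtype placebo and 7.17, 7.87 and 7.60 in wildtype estradiol. In knockout it read 5.58, 5.99 and 5.85 on placebo and 5.63, 5.04 and 5.53 on estradiol. Wildtype placebo array 3 was the highest of the 9 arrays outside wildtype estradiol. The wildtype rise of 1.97 ± 0.33 (adjusted p = 0.0177), or 3.91-fold, was the largest of the contractile genes in these arrays. It was no longer called without wildtype placebo array 1 (1.80) or 2 (1.71) or wildtype estradiol array 2 (1.81) or 3 (1.94), although its size changed little. The knockout difference was -0.41 ± 0.33 (adjusted p = 0.794).

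Tagln, or transgelin, an actin cross-linker, read 8.07, 7.92 and 8.60 in wildtype placebo and 8.92, 9.14 and 9.10 in wildtype estradiol, with no overlap. The knockout arrays read 8.22, 8.35 and 8.10 on placebo and 8.01, 8.26 and 7.86 on estradiol (difference -0.19 ± 0.18). The wildtype rise of 0.86 ± 0.18 (adjusted p = 0.0414), or 1.81-fold, passed by a small margin and was lost when any 1 of 10 of the 12 arrays was left out (0.72 to 0.92), the exceptions being wildtype placebo array 3 and knockout placebo array 2. It was also lost under quantile (0.82, adjusted p = 0.0611) and median scaling (0.73, adjusted p = 0.105). The remaining thin filament genes did not pass. Smtn, or smoothelin, a marker of contractile smooth muscle, differed by 0.50 ± 0.30 in wildtype and -0.42 ± 0.30 in knockout, and Lmod1, leiomodin, which nucleates actin filaments in smooth muscle, by 0.04 ± 0.30 and 0.08 ± 0.30. Smtn read 6.71, 7.41 and 7.94 on placebo and 7.79, 7.89 and 7.87 on estradiol in wildtype, and 7.35, 7.88 and 7.05 and 7.36, 6.83 and 6.84 in knockout. Lmod1 read 6.28, 7.54 and 6.73 and 7.01, 6.79 and 6.87 in wildtype, and 6.37, 7.10 and 6.33 and 6.83, 6.40 and 6.81 in knockout. In both genes each treatment's arrays overlapped with the other's in either genotype. Lmod1 was highest in wildtype placebo array 2 (7.54), and its wildtype sign turned under quantile (-0.08) and median scaling (-0.08).

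The myosin genes had differences above 0 in wildtype and did not pass. Myh11, the smooth muscle myosin heavy chain, read 6.78, 6.91 and 7.63 in wildtype placebo and 7.85, 8.01 and 7.97 in wildtype estradiol, groups that did not overlap. The difference was 0.84 ± 0.23 (adjusted p = 0.103). Myl9, the regulatory light chain, read 7.30, 7.36 and 8.54 on placebo and 8.89, 8.45 and 8.83 on estradiol in wildtype, where array 3 of placebo overlapped the estradiol arrays, and differed by 0.99 ± 0.32 (adjusted p = 0.184). Without that array both were called, at 1.10 for Myh11 (adjusted p = 0.0144) and 1.39 for Myl9 (adjusted p = 0.0151). Mylk, the kinase gene, was nearly flat at 10.06, 9.87 and 9.87 against 10.19, 10.36 and 9.98 (difference 0.25 ± 0.15, adjusted p = 0.535). In knockout Myh11 read 7.32, 7.15 and 6.97 on placebo and 7.25, 6.62 and 6.79 on estradiol (difference -0.26 ± 0.23). Myl9 read 7.89, 8.12 and 7.54 and 8.08, 7.53 and 7.41 there (-0.18 ± 0.32), and Mylk 10.22, 9.79 and 9.86 and 9.89, 9.59 and 9.70 (-0.23 ± 0.15). The knockout treatments overlapped in all 3 genes, and none of these differences passed. A further Mylk probe set differed by 0.28 ± 0.27 and a dim one by -0.18 ± 0.11, while the dim second set of Myh11 differed by 0.15 ± 0.12.

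The promoters of Acta2 and Myl9 are shown because smooth muscle contractile genes are classic targets of serum response factor, which binds the CArG box, and these windows hold such boxes. Both span 300 bases in RefSeq, build GRCm38.p6, from 250 before to 50 after the start. The Acta2 window is chr19:34255324-34255623 on the minus strand and the Myl9 window chr2:156775214-156775513 on the plus strand. Capitals mark CArG boxes with at most 1 letter off.
Acta2: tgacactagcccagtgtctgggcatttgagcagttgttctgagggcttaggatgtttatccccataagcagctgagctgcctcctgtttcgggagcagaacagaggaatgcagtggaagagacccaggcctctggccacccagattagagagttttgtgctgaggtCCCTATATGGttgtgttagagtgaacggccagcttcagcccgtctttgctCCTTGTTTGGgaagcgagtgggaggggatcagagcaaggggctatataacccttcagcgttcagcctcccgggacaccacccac
Myl9: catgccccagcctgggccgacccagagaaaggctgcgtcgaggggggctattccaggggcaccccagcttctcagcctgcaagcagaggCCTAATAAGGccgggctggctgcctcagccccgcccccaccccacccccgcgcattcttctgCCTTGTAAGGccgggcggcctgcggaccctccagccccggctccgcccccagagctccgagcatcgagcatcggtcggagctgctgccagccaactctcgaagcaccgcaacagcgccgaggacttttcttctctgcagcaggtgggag
The boxes begin at positions -84 and -34 relative to the start in Acta2 and at -161 and -99 in Myl9. The first Myl9 box is an exact one, which 1.63% of all promoters hold, and Myl9 was the 1 member of 7 with it. A box with at most 1 letter off was in 21.1% of promoters and in 3 of the 7 members (Acta2, Lmod1 and Myl9).

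In the knockout, estradiol moved none of the contractile genes past the threshold. Limma called 0 of the 10 members, where 0.0989% of all genes were called, and 1 member, Oxtr, had an unadjusted p under 0.05, as did 8.32% of all genes. Oxtr was also the 1 member whose knockout groups did not overlap, with estradiol higher, as in 8.37% of all genes. Of the 9 contractile genes 8 had a difference below 0, with a median of -0.26 and a range of -0.49 to 0.08, and their adjusted p-values were 0.612 to 0.955. Their 95% intervals reached from -1.15 (Cnn1) to 0.76 (Lmod1).

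**Figure D2:**
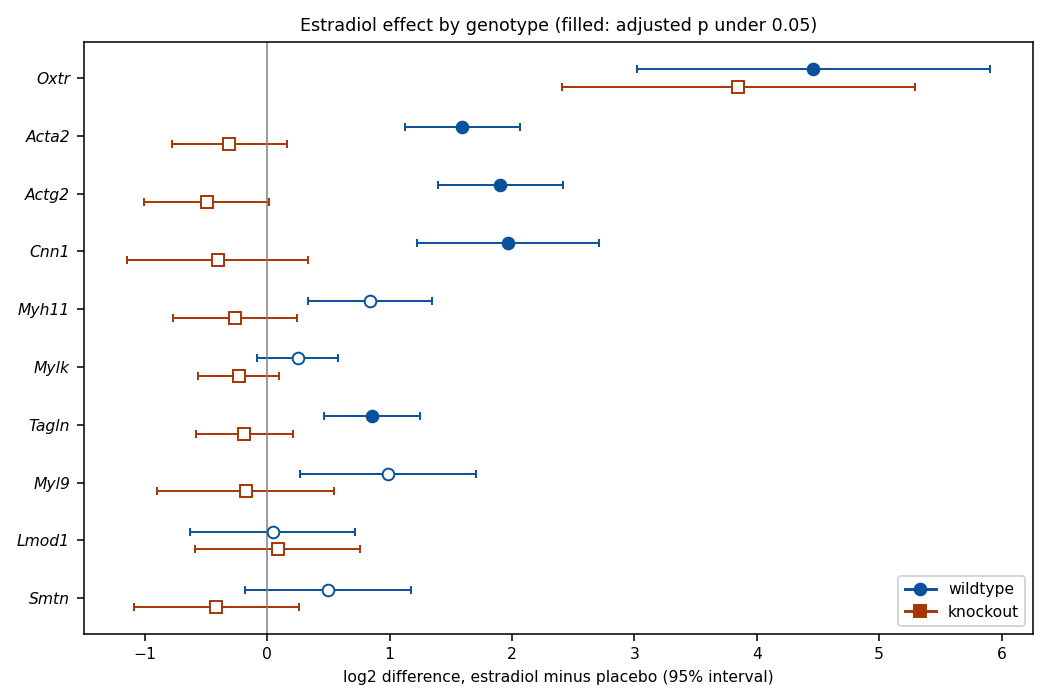
Log2 difference, estradiol minus placebo (x axis), of the 10 genes in wildtype (circles) and knockout (squares); bars are 95% intervals and filled symbols were called. Oxtr lies far to the right in both genotypes, whereas the other called genes (Acta2, Actg2, Cnn1 and Tagln) lie right of 0 in wildtype and left of it in knockout.

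On estradiol several contractile genes were lower in the knockout glands than in wildtype ones. Acta2 was -1.56 ± 0.21 (adjusted p = 0.0151), Actg2 -1.79 ± 0.23 (adjusted p = 0.0122), Cnn1 -2.15 ± 0.33 (adjusted p = 0.0193) and Tagln -1.01 ± 0.18 (adjusted p = 0.0274), all knockout minus wildtype, which is 2.95-fold, 3.46-fold, 4.43-fold and 2.02-fold lower. These 4 of the 10 members were called, where 1.09% of all genes were called lower. In 8 members all knockout arrays lay below all wildtype arrays, as in 11.8% of all genes, and 8 had an unadjusted p under 0.05, as did 13.5% of all genes. The other contractile genes had differences of -1.06 ± 0.23 for Myh11 (adjusted p = 0.0586), -1.05 ± 0.32 for Myl9, -0.84 ± 0.30 for Smtn, -0.46 ± 0.15 for Mylk and -0.21 ± 0.30 for Lmod1. This comparison shares the wildtype estradiol arrays with that of estradiol against placebo in wildtype, so its direction is not independent of that one.

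The calls between genotypes changed when single arrays were left out, as did the count over all genes, which was 204 with every array and 0 to 315 with 1 left out. Without knockout estradiol array 2 or 3 none of the 4 was called (Acta2 -1.52 and -1.47, Actg2 -1.66 and -1.61, Cnn1 -1.97 and -2.21, Tagln -1.12 and -0.92). Without knockout estradiol array 1, which was the highest of its group in 8 of the 9 contractile genes, Actg2 and Acta2 were called, and Cnn1 (-2.26) and Tagln (-0.998) were not. With array 3 of wildtype estradiol left out Actg2 alone was called (Acta2 -1.57, Cnn1 -2.12, Tagln -0.99), and without array 2 Cnn1 (-1.99) and Tagln (-0.97) were lost. With array 3 of wildtype placebo left out the 4 were joined by Myh11 (adjusted p = 0.0210) and Myl9 (adjusted p = 0.0462). Median scaling ended the Tagln call (-0.85, adjusted p = 0.0822).

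On placebo the genotypes were close. Limma called 0 of the 10 members and 0% of all genes, and 1 member, Actg2, had an unadjusted p under 0.05, as did 2.03% of all genes. Actg2 was 0.61 ± 0.23 higher in knockout (adjusted p = 1), and the 3 knockout arrays lay above the 3 wildtype arrays, as in 4.9% of all genes. Over the 9 contractile genes the median difference was 0.07 and the range -0.25 to 0.61.

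**Figure D3:**
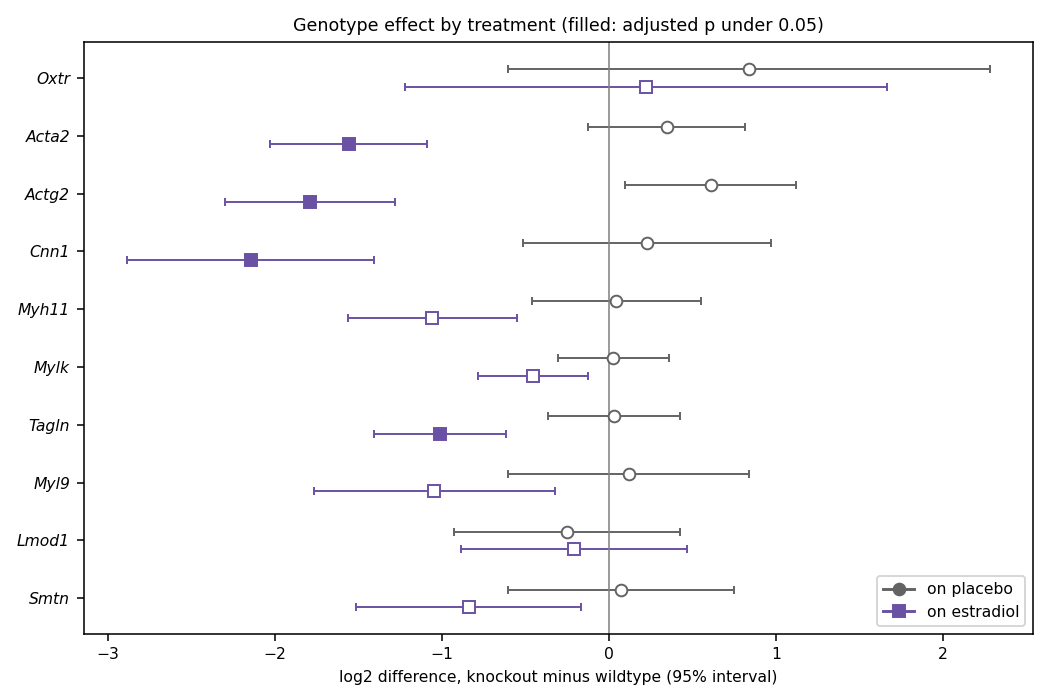
Log2 difference, knockout minus wildtype (x axis), of the 10 genes on placebo (circles) and on estradiol (squares); bars are 95% intervals and filled symbols were called. On placebo the contractile genes lie between -0.25 and 0.61, and on estradiol Acta2, Actg2, Cnn1 and Tagln lie between -2.15 and -1.01, while Oxtr lies near 0.

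The interaction is the direct test of whether the estradiol response differed between genotypes. Of the 9 contractile genes 8 had an interaction below 0, with a median of -1.10 against 0.00053 over all genes. The largest were Actg2 at -2.40 ± 0.32 (adjusted p = 0.0981), Cnn1 at -2.37 ± 0.47 (adjusted p = 0.194), Acta2 at -1.90 ± 0.30 (adjusted p = 0.139), Myl9 at -1.16 ± 0.46, Myh11 at -1.10 ± 0.32 and Tagln at -1.04 ± 0.25. None of the 10 members was called, where 0.011% of all genes were, and 7 had an unadjusted p under 0.05, as did 6.43% of all genes. A smaller response of these genes in the knockout is therefore not shown at the threshold used, although the 95% intervals of Actg2 (-3.12 to -1.68), Cnn1 (-3.42 to -1.32) and Acta2 (-2.57 to -1.24), not adjusted for the number of genes, lay below 0. Without wildtype placebo array 3 Actg2 (-2.48, adjusted p = 0.0487), Cnn1 (-2.79, adjusted p = 0.0326) and Acta2 (-2.08, adjusted p = 0.0458) were called, and without knockout estradiol array 1 Actg2 (-2.71, adjusted p = 0.00225). With both lymphocyte-poor placebo arrays left out none was called. Smtn had -0.91 ± 0.43, Mylk -0.48 ± 0.21 and Lmod1 0.04 ± 0.43.

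Upstream and downstream of the receptor, little passed. Of 14 measured genes of oxytocin signalling besides Oxtr (the hormone genes, vasopressin receptors, Gq proteins, phospholipases and calcium release channels), 0 were called in wildtype or knockout under estradiol, and the smallest p in wildtype was that of the phospholipase Plcb4 (-0.93 ± 0.26, adjusted p = 0.116), with Plcb2 next (-0.24 ± 0.11). Of 14 genes for other myosin chains and for the control of the myosin light chain 0 were called. Of 11 genes for serum response factor and its partners 0 were called either, with the cofactor gene Fhl2 at 0.51 ± 0.15 (adjusted p = 0.121) and Myocd, the gene of myocardin, at -0.36 ± 0.15 in wildtype. Of 21 further smooth muscle filament and adhesion genes 2 rose in wildtype, the LIM-domain genes Pdlim7 (1.31 ± 0.13, adjusted p = 0.00172) and Csrp1 (0.86 ± 0.19, adjusted p = 0.0490). On estradiol both were also lower in the knockout (-0.78 ± 0.13 and -0.999 ± 0.19, adjusted p = 0.0270 and 0.0365). Within knockout the estradiol difference was 0.64 ± 0.13 for Pdlim7 (adjusted p = 0.199) and -0.08 ± 0.19 for Csrp1 (adjusted p = 0.931). Averaged over genotypes, Pdlim7 was called (0.98, adjusted p = 0.0013) and Csrp1 was not (0.39, adjusted p = 0.184). The median wildtype differences of these lists were -0.05, 0.07, -0.03 and 0.14 in the order given, against 0.01 over all genes.

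Markers of other cells moved with some of these results and not with others. Of 15 measured basal markers that are not contractile genes, 14 were above 0 in wildtype under estradiol with a median of 0.88, and 3 rose: the transcription factor gene Snai2 (1.67, adjusted p = 0.00486), the collagen gene Col17a1 (1.57, adjusted p = 0.0140, under the lower quartile in 9 arrays) and the laminin gene Lama3 (0.90, adjusted p = 0.0488). In knockout 0 were called, with a median of 0.01 and Snai2 at 1.22 (adjusted p = 0.0996). Between genotypes on estradiol 14 of the 15 were below 0 (median -0.96), and 3 were lower in knockout, Col17a1 (-1.64, adjusted p = 0.0193), Lama3 (-1.12, adjusted p = 0.0270) and the integrin gene Itgb4 (-1.61, adjusted p = 0.0460). The log2 of their summed intensity was 11.80 to 12.20 on placebo and 12.47 to 12.58 on estradiol in wildtype, and 11.65 to 12.22 and 11.81 to 11.99 in knockout. With their mean as a covariate none of the 10 members was called in wildtype (Oxtr 2.16 ± 1.02, Acta2 0.82, Actg2 1.44, Cnn1 0.44, Tagln 0.34) and none between genotypes under estradiol, and the wildtype sign of Smtn turned (-0.64). Over all genes that covariate left 3 calls of 342 in wildtype and 0 of 204 between genotypes. Of 15 luminal markers all differences were above 0 in wildtype (median 1.70), 1 rose (Prom1, 2.07, adjusted p = 0.0139), and 7 were lower in the knockout on estradiol, of which those with the smallest p were Prom1 (-2.40), Krt7 (-3.38), Cldn7 (-3.95) and Cdh1 (-3.79), and the largest differences those of Krt19 (-5.13) and Elf5 (-4.57). The log2 of their summed intensity was 11.01 to 11.63 on placebo and 12.69 to 14.49 on estradiol in wildtype, and 9.90 to 11.37 and 9.96 to 10.64 in knockout. With the luminal mean as a covariate no member was called in wildtype (Oxtr 4.67, Acta2 1.56, Actg2 1.83, Cnn1 1.36) or between genotypes on estradiol (Acta2 -1.50, Actg2 -1.67, Cnn1 -1.13). Over all genes 11 calls were left in wildtype and 0 between genotypes. With each gene centred over the 12 arrays, the basal mean was 0.40 to 0.93 in wildtype estradiol and at most 0.11 elsewhere. The luminal mean was 1.08 to 2.78 there and at most 0.44 elsewhere. Either covariate thus largely follows the wildtype estradiol group, and these fits cannot separate cell make-up from treatment and genotype. The part of the basal and luminal cells in these results was not tested.

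Markers of mural cells, the pericytes and smooth muscle of vessels, did not rise as a list with the contractile genes. Of 14 measured, 5 were above 0 and 9 below 0 in wildtype under estradiol. There 0 were called higher and 1, the pericyte gene Rgs5, fell by 0.89 (adjusted p = 0.0293), while Pdgfrb was at 0.66 (adjusted p = 0.104). The list's median in wildtype was -0.10 and the log2 of its summed intensity 12.68 to 13.35 on placebo and 12.61 to 12.75 on estradiol. In knockout the sum was 12.72 to 13.12 and 12.37 to 12.58. The mural list leaves out the 9 contractile genes, which vascular smooth muscle also makes. The part of vascular smooth muscle in the contractile results was not tested. Skeletal muscle markers were highest in wildtype placebo array 2 (score 3.03) and lowest in knockout placebo array 3 (-3.02), and 0 of 17 were called. Scores here are means of log2 values, each gene centred over the 12 arrays.

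Lymphocyte markers split the arrays across groups. Their score was -2.22 in wildtype placebo array 3, -2.23 in knockout placebo array 2 and -2.59 in knockout estradiol array 1, against 1.99 to 2.65, 2.19 to 2.23 and 0.41 to 1.75 in the other arrays of those groups. Those 3 arrays were the highest of their group in 7, 6 and 8 of the 9 contractile genes. In wildtype estradiol arrays 1 and 3 were poor in these markers (-2.43 and -2.72) and array 2 was not (0.96), yet array 2 was the highest in 6 of the 9. With this score as a covariate 5 members were still called in wildtype, 6 between genotypes under estradiol and 2 in the interaction, Actg2 (-2.30) and Acta2 (-1.84), while over all genes the counts were 641, 896 and 34 against 342, 204 and 2. The 3' minus 5' signal of the Gapdh control probe sets, a sign of RNA integrity, was 2.10 to 3.26 on placebo and 2.41 to 3.09 on estradiol in wildtype, and 3.20 to 3.31 and 3.22 to 3.56 in knockout. With it as a covariate 5 members were called in wildtype and none between genotypes under estradiol (Acta2 -1.25, Actg2 -1.57, Cnn1 -1.45), and over all genes 335 and 0.

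**Figure D4:**
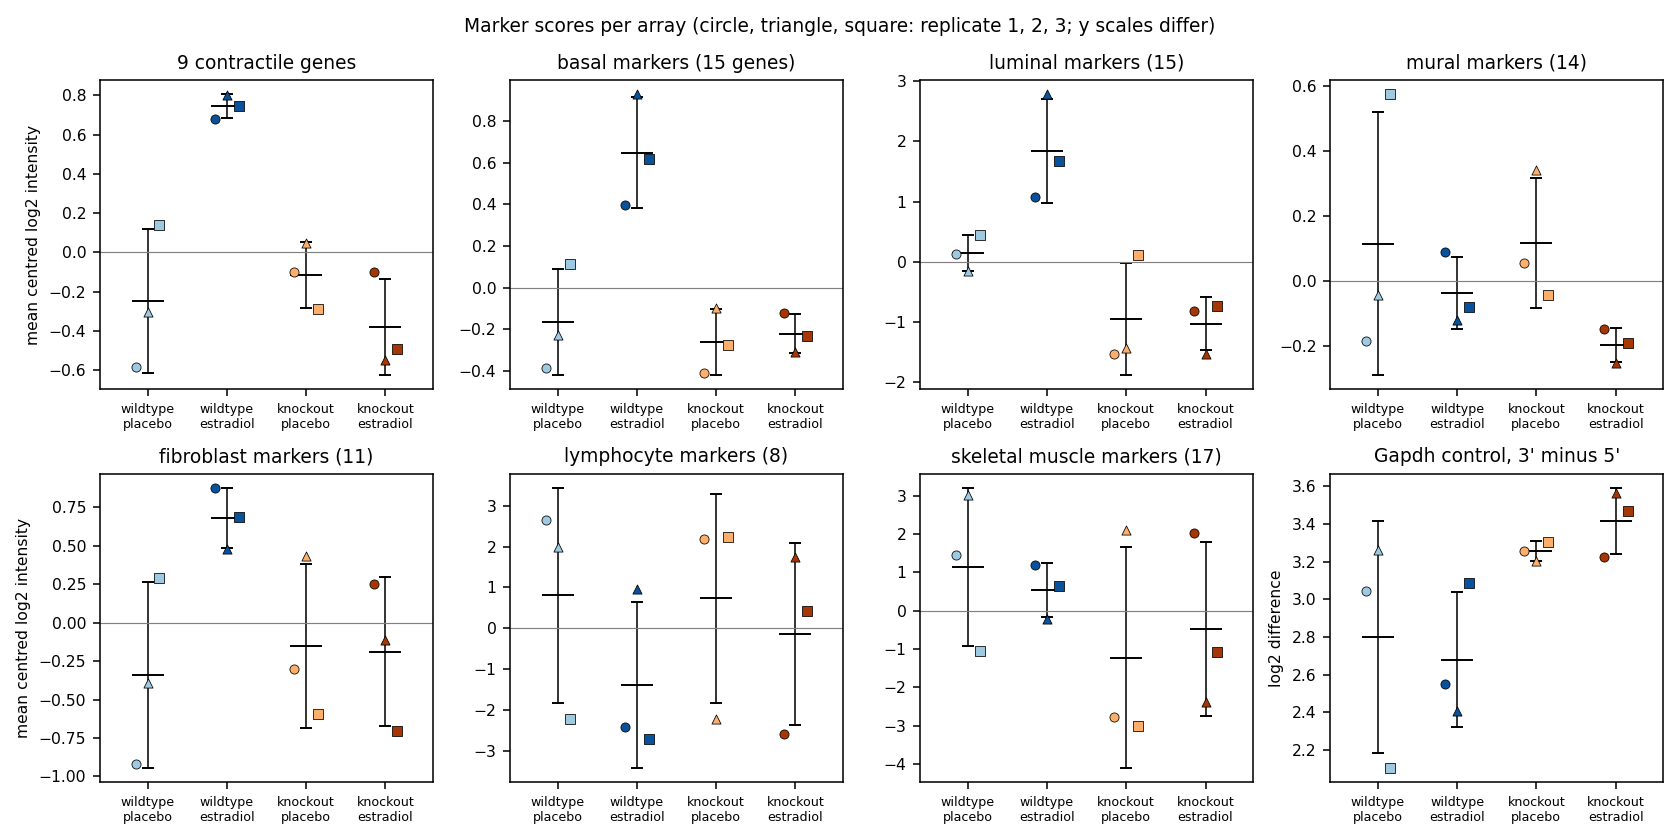
Scores per array (y axes, mean centred log2 intensity, each with its own range) of the 9 contractile genes and of markers of 6 cell types, and the 3' minus 5' log2 difference of the Gapdh control; points are arrays, symbols the replicate number and bars mean ± SD. The contractile score is 0.68 to 0.80 in wildtype estradiol and at most 0.14 elsewhere. The basal (0.40 to 0.93), luminal (1.08 to 2.78) and fibroblast (0.48 to 0.87) scores are highest there too, and the mural score is not (-0.12 to 0.09).

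The genes whose levels over the 12 arrays were most like those of Oxtr, by Pearson's r, were Htra1, a secreted protease gene (0.979), Mettl7a1 (0.977), Lrrc41 (0.973), Chst13, a carbohydrate sulfotransferase gene (0.973), and Ube2r2, a ubiquitin-conjugating enzyme gene (0.970). Htra1 averaged 11.58 ± 0.35 on placebo and 12.98 ± 0.06 on estradiol in wildtype, and 11.93 ± 0.25 and 12.85 ± 0.05 in knockout (SD, n = 3). Most like the mean of the 9 contractile genes were Dstyk, a kinase gene (0.977), Moxd1 (0.974), Ptgfrn (0.971), the transcription factor gene Creb3l2 (0.964) and the collagen gene Col11a1 (0.963). Moxd1 averaged 6.42 ± 0.96, 8.40 ± 0.10, 6.53 ± 0.54 and 5.81 ± 0.22 in the same order of groups, high in wildtype estradiol alone. Among the members themselves, r with Acta2 was 0.963 for Actg2, 0.940 for Cnn1, 0.932 for Myh11, 0.920 for Tagln and 0.858 for Myl9, lower for Smtn (0.774), Mylk (0.652) and Oxtr (0.489), and 0.273 for Lmod1. These values describe 12 arrays that share groups and treatments, and carry no test.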

How the data were processed

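Total RNA of 12 mammary glands was labelled with biotin and read on 12 single-colour Affymetrix arrays. The deposited values are log2 intensities, 1 per probe set and array, made with RMA and limma 2.9.16 per the submitters' processing notes. The chip definition is not given in the sources used here. Array medians were 5.73 to 5.80. Precision is limited by the number of arrays. The platform table gives 1 gene to 34945 probe sets, several to 932 and none to 9160, beside 64 control sets. For each of 18193 genes the probe set of highest mean intensity stood for the gene, and no dim gene was removed.

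With R 4.3.3, limma 3.58.1 fitted the 4 groups' means once, and eBayes (8 residual and 2.15 prior degrees of freedom) gave 6 comparisons: estradiol in each genotype, genotype under each treatment, the interaction and the average estradiol effect. Tests were two-sided and adjusted over all genes by Benjamini and Hochberg. The fit's estradiol comparison in wildtype was tested on simulated data with independent noise. The other comparisons and the covariate and block fits were not tested this way. Lists of 173 genes, 161 of them measured, cover the pathway and cell type markers. The members and lists were chosen with earlier results of these data known. Named genes are all members, Ccnd1, up to 4 called genes of a list (otherwise the 2 with the smallest p), and the 5 genes most like Oxtr or the contractile mean. The CArG box with 1 letter off was chosen after the promoters had been seen.

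Alternatives were other probe set rules, omission of the dimmest 40%, scaling by quantiles or by medians, trend and robust priors, array weights, a replicate block, fits of the compared arrays, marker covariates, thresholds of 0.01 and 0.1, and each array left out. Covariates for lymphocyte and luminal markers and for Gapdh, and the omission of both lymphocyte-poor placebo arrays, were added after seeing the data. Promoters came from RefSeq tables (GRCm38.p6), which held 7 of the 10 members. Python 3.11.15 with matplotlib 3.10.9 drew the plots. Values of some listed genes are not reported here.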

Additional observations from a re-analysis of the deposited data

Results flagged for a closer look

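Actg2 was singled out because the genotypes differed in opposite directions on the 2 treatments. On placebo the 3 knockout arrays (6.49 to 6.53) lay above the 3 wildtype arrays (5.62 to 6.08), and on estradiol the 3 knockout arrays (5.66 to 6.65) lay below the 3 wildtype arrays (7.80 to 7.81). The difference of these effects is the interaction of -2.40, which limma tested at adjusted p = 0.0981 and which did not pass. Over its alternatives that adjusted p ranged from 0.00225 to 0.628.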

How the results depend on the processing

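The number of members called in wildtype under estradiol was 5. It was 1 in a fit of the 6 arrays compared, 3 at a threshold of 0.01, 8 with the mural score, 0 with the basal score and 0 with the luminal score as a covariate, and 3 to 7 with 1 array left out. Over all genes the count of 342 was 71, 94, 2416, 3 and 11 under those alternatives in turn, and 100 to 1146 with 1 array left out. The knockout count of 0 became 1 (Oxtr in each case) with the mean of all probe sets, array weights, the basal, mural, lymphocyte or Gapdh covariate, a threshold of 0.1, or both lymphocyte-poor placebo arrays left out, and was 0 to 1 with 1 array left out; over all genes 18 calls became 2213 with the mural covariate and 15 to 63 under the others named. Between genotypes under estradiol the count of 4 was 1 with the replicate block, 2 in a fit of the 6 arrays, 0 with the basal, luminal or Gapdh covariate, 0 at a threshold of 0.01, and 0 to 6 with 1 array left out, where all genes had 204 calls, then 45, 47, 0 with each of those covariates, 15, and 0 to 315. The interaction count of 0 became 3 with array weights, 2 with the lymphocyte covariate, 1 at a threshold of 0.1, and 0 to 3 with 1 array left out, where all genes had 2 calls, then 22, 34, 4, and 0 to 18. The average estradiol count of 1 became 7 with array weights or the mural covariate, 0 with the basal covariate, 3 with the Gapdh covariate or a threshold of 0.1, 6 without both lymphocyte-poor placebo arrays, and 1 to 6 with 1 array left out. Over all genes that count of 287 became 3804 with array weights, 4667 with the mural and 20 with the basal covariate, 506 with Gapdh, 585 at 0.1, 3913 without both placebo arrays, and 127 to 1400 with 1 left out. On placebo the genotype count was 0 under every alternative run. The causes were not tested.

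Signs turned only in values that had not been called. With the basal covariate the Oxtr interaction was 1.57, the Smtn estradiol difference in wildtype -0.64, its genotype difference under estradiol 0.37 and its interaction 0.17, and Lmod1 had -0.31 in wildtype and 0.17 between genotypes under estradiol. With the luminal covariate the genotype difference of Oxtr under estradiol (knockout minus wildtype) was -0.13 and the Lmod1 interaction -0.24. With the mural covariate the knockout estradiol differences were 0.0073 for Cnn1, 0.026 for Myh11, 0.011 for Tagln, 0.35 for Myl9 and 0.044 for Smtn. Lmod1 in wildtype was -0.080 under quantile and -0.082 under median scaling, -0.20 with array weights, -0.11 with the lymphocyte covariate and -0.018 without both lymphocyte-poor placebo arrays, and its interaction was -0.0015 with the Gapdh covariate. With 1 array left out the ranges were -1.40 to 0.014 for the Oxtr interaction, and for Lmod1 -0.24 to 0.39 in wildtype, -0.051 to 0.33 in knockout and -0.30 to 0.32 in the interaction.

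Array medians over genes were 0.13 higher in wildtype estradiol than in wildtype placebo, and on estradiol knockout medians differed from wildtype by -0.16 and the responses by -0.13, shifts that median scaling removes. Cnn1 is among the dimmest 40% of genes and was not tested under that filter. The labels do not say whether replicate numbers pair the mice. Of 18 same-number pairs of arrays 7 correlated above 0.1 in their deviations from group means (mean -0.12, against 0.07 for different numbers). These correlations ran from -0.74 to 0.66, a spread too wide to settle whether a pairing existed. With the replicate block 10 of 10 members kept their sign in each of the 4 comparisons other than placebo and average, the wildtype count was 4 (Tagln lost, adjusted p = 0.113), and between genotypes on estradiol Acta2, Cnn1 and Tagln were lost (adjusted p = 0.0524, 0.0524 and 0.0861). With 3 mice per group, the estradiol differences of Mylk, Smtn and Lmod1 did not pass the threshold, and the p-values measure the spread between these mice alone.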

Other observations

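Fibroblast markers moved in wildtype under estradiol as well: all 11 measured differences were above 0 with a median of 0.77, and 1 was called, the receptor gene Pdgfra at 1.72 (adjusted p = 0.00486). In knockout the median was -0.21 with 0 called, and between genotypes on estradiol all 11 were below 0 (median -0.76) with 0 called. Their interaction was below 0 in all 11 as well (median -0.99), with 0 called. No fibroblast covariate was run, and the part of these cells in the contractile results was not tested. Of 9 white adipocyte markers 0 were called (wildtype median 0.09), with Pparg at 0.59 ± 0.30 and Cidec at 0.53 ± 0.29. Of 6 brown adipocyte markers 0 were called (median -1.26), with Cidea at -1.80 ± 0.80 and Ucp1 at -2.79 ± 1.67. Of 6 endothelial markers 0 were called (median -0.23), with Cldn5 at -0.92 ± 0.35 and Pecam1 at -0.31 ± 0.20. Of 8 lymphocyte markers all differences were below 0 in wildtype (median -2.09) and 0 were called, with Cd79a at -2.27 ± 1.43 and Cd3e at -1.33 ± 0.91.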
